A study of Saccharomyces cerevisiae with 18 samples.

Results

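Input chromatin is the sheared, crosslinked DNA of a ChIP experiment before any antibody is added, and it serves as the divisor for the immunoprecipitated libraries. The 2 input libraries of wild-type *Saccharomyces cerevisiae*, 1 from mock-treated cells and 1 from cells in osmotic shock, were chosen by their labels from 18 samples of the series, and they were read over every ORF with a name of its own. Of 6330 such ORFs, the 5% with the lowest mean input were left out, which left 6013 ORFs. The question was how far the input itself differed between treatments at the ORFs where RNA polymerase II (Pol II) was gained or lost.

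The wild-type cultures were grown in rich medium (YEPD) and split, and either YEPD (mock treatment) or YEPD with KCl to 0.4 M was added for 5 min before formaldehyde crosslinking. Cells were lysed by bead beating and sonicated, a share of the clarified lysate was kept as input, and DNA of a limited fragment size was cut from a gel for each library. Beside the input stood 1 library per treatment of Rpb3, a subunit of Pol II precipitated without a tag, and 1 of a mock IP. The labels do not say which immunoprecipitations came from the same lysate as the input, give no batch, and hold 1 library per treatment, so that each difference below is one between these libraries, with no replicate check and no p-value.

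Sonication does not break or release all chromatin equally, and DNA that is wrapped in nucleosomes, bound by proteins or being transcribed can be recovered to a different degree. Input libraries are sequenced so that such unevenness can be divided out. Osmotic shock of yeast activates the MAP kinase Hog1, which enters the nucleus and is found with Pol II over the genes of glycerol synthesis and stress defence, while genes of growth lose Pol II for a time.

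The signal is the authors' coverage per ORF, scaled to ORF length and library total, in the arbitrary units of their table. Input was the flattest of the 4 kinds of wild-type library read (input, mock IP, Rpb3 and Hog1). The median signal was 9960 in YEPD and 10200 in KCl, and the 1st to 99th percentiles ran from 6951 to 14000 in YEPD and from 6461 to 15000 in KCl. The log2 fold of KCl over YEPD, with 989 added to both signals, had a median of 0.03 and an SD of 0.17 over the 6013 ORFs, and 93.0% of ORFs lay within a log2 fold of 0.32 on either side of 0. By chromosome the median log2 fold lay between 0.00 and 0.08, so no chromosome stood apart.

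A change of at least 1.5-fold in input was found at 25 ORFs that were higher in KCl (0.416% of those tested) and at 14 that were lower (0.233%). These counts depend on the 989 added, and were 39 and 25 with nothing added and 6 and 3 with 0.5 times the median YEPD input. The highest log2 fold was 1.04 and the lowest was -1.09. Of the 25 ORFs with higher input, 14 had gained at least 2-fold in Rpb3, 10 had changed less than 2-fold and 1, YGR176W, had lost it. Of the 14 with lower input, none had gained Rpb3, 5 had lost it and 9 had changed less. Over all ORFs, 270 gained Rpb3 (4.49%) and 465 lost it (7.73%). The input signals of both treatments are plotted with these classes.

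**Figure D1:**
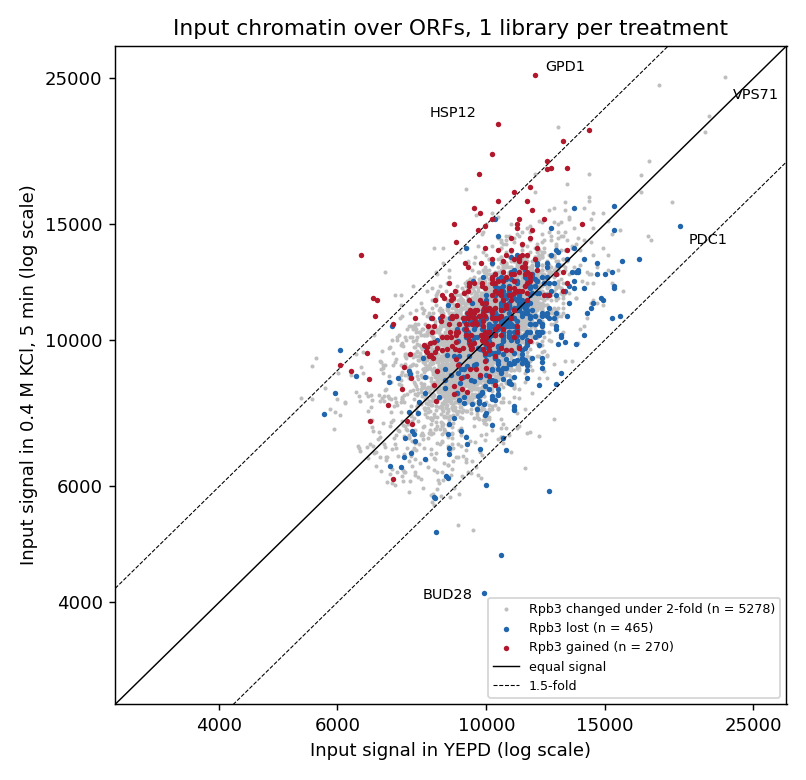
Each point is 1 of the 6013 ORFs, with its input signal in YEPD (x axis) and after 5 min in 0.4 M KCl (y axis), both on log scales. Red ORFs gained and blue ORFs lost at least 2-fold in Rpb3, the solid line marks equal signal and the dashed lines a 1.5-fold ratio, and GPD1 and HSP12 lie far above the line while most ORFs stay between the dashed lines.

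GPD1, the glycerol-3-phosphate dehydrogenase of glycerol synthesis, had an input signal of 11800 in YEPD and 25300 in KCl, the highest KCl input of any ORF tested and a log2 fold of 1.04. HSP12, a small heat shock protein of the membrane, had 10400 and 21300, a log2 fold of 0.97. HOR2, a glycerol-3-phosphate phosphatase, had 10200 and 19200, a log2 fold of 0.85. These 3 ORFs were below the 95th percentile of the YEPD library (12100) and above the 99th percentile of the KCl library.

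RTC3 had an input of 9750 in YEPD and 17900 in KCl, a log2 fold of 0.81. STL1, the glycerol symporter of the plasma membrane, had 9570 and 15900, and GLK1, the glucokinase, had 8960 and 15000, both with a log2 fold of 0.68. Rpb3 at the same 3 ORFs was at 10100, 5140 and 9790 in YEPD and at 604000, 324000 and 236000 in KCl. The difference in input was thus small beside that in Rpb3, whose log2 fold was 5.77 at RTC3, 5.73 at STL1 and 4.46 at GLK1.

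YFL013W-A, an ORF that comes just before HSP12 in the order of systematic names and is not among the protein-coding genes of the R64 reference, had an input of 6510 in YEPD and 13500 in KCl. Its Rpb3 was 3920 and 184000. IES1, a subunit of the INO80 remodelling complex with a neighbouring number, had an input of 11300 and 11100 and an Rpb3 of 5980 and 7650. The high KCl input was thus seen at HSP12 and YFL013W-A and not at IES1.

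At large changes of Rpb3 the median input differed in the direction of Rpb3, and at changes below 2-fold the bin medians lay between 0.02 and 0.06. The median input log2 fold was -0.15 over the 61 ORFs with an Rpb3 log2 fold below -2, -0.02 over 404 from -2 to -1 and 0.02 over 540 from -1 to -0.5. The bins below -1 hold 124 cytosolic ribosomal protein genes, a family whose own median was -0.22, and the other ORFs there were not taken apart. The median was 0.03 over the 4292 ORFs between -0.5 and 0.5, and 0.06 over the 446 from 0.5 to 1. It reached 0.13 over the 183 ORFs from 1 to 2, 0.25 over 69 from 2 to 4 and 0.57 over the 18 ORFs at 4 and over. The last bin holds few ORFs, and without it the highest median was the 0.25 of the bin before.

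The mock IP, which has no specific target, had the same order with wider steps. Its median log2 fold was -0.47 in the bin below -2, 0.02 in the middle bin, 0.91 from 2 to 4 and 1.93 at 4 and over. At least 1.5-fold higher mock IP signal was found at 497 ORFs (8.27%) and lower at 218 (3.63%), far more than for input. Whether the shift of input and that of the mock IP have the same source was not tested.

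**Figure D2:**
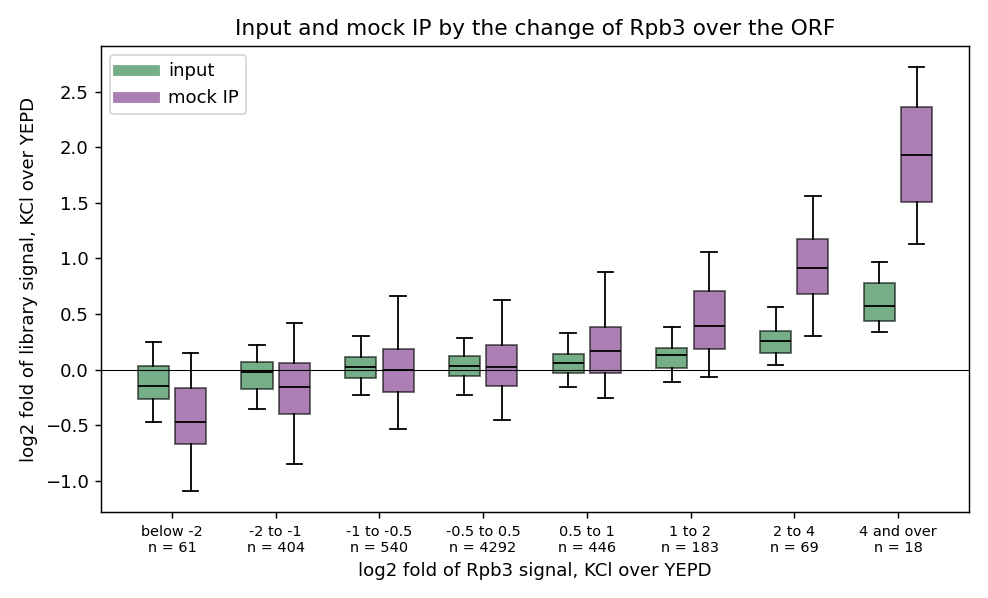
Boxes give the log2 fold of KCl over YEPD of input (green) and mock IP (purple) for ORFs in 8 bins of the Rpb3 log2 fold, with the number of ORFs under each bin, the median as a line, the quartiles as the box and the 5th and 95th percentiles as whiskers. The input median goes from -0.15 in the lowest bin to 0.57 in the highest, and that of the mock IP from -0.47 to 1.93.

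Over the 270 ORFs that gained Rpb3 the median input log2 fold was 0.17, with quartiles of 0.06 and 0.28, and 14 ORFs (5.19%) were at least 1.5-fold higher. At a log2 fold of 0.32 or more, 54 of the 270 (20%) were higher, against 4.19% of all ORFs. Over the 465 that lost Rpb3 the median was -0.03, with quartiles of -0.19 and 0.06, and 44 (9.46%) were lower by at least 0.32, against 2.78% of all ORFs. Of the 465 ORFs, 265 lay below 0, against 39.3% of all ORFs. The 465 include 124 of the 126 cytosolic ribosomal protein genes tested. Of those 126 genes, 119 lay below 0 and 24 were lower by at least 0.32, and none was 1.5-fold lower. The lost ORFs outside this 1 family were not counted apart. Ribosome biogenesis genes, of which 43 of 53 are also among the 465, had a median of -0.02. The median at ORFs that lost Rpb3 depended on the class, and was 0 for losses of at least 1.5-fold and -0.15 for losses of at least 4-fold, while for gains it was 0.10 and 0.30. Across all 6013 ORFs, the log2 folds of input and Rpb3 had a Pearson correlation of 0.27 and a Spearman correlation of 0.13, and those of input and mock IP 0.61 and 0.58. Among the 5278 ORFs with less than 2-fold Rpb3 change, the Pearson correlation with Rpb3 was 0.03. Among the 270 that gained Rpb3 it was 0.62 (Spearman 0.49), and among the 465 that lost it 0.24 (Spearman 0.32). ORFs share libraries and are not independent replicates.

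The 10 ORFs with the largest Rpb3 gain ran from HSP12 (log2 fold 6.25) to GRE2, the methylglyoxal reductase (4.99). All 10 had higher input in KCl, against 58.4% of all ORFs, with log2 folds of 0.37 to 1.04 and a median of 0.75. Of these, 7 were among the 25 ORFs with the largest input rise, which are 0.416% of all ORFs. The remaining ORFs of the 10 were CTT1, the cytosolic catalase, at 11600 in YEPD and 17100 in KCl, FMP45, a membrane protein of the cell cortex, at 6290 and 8990, and GRE2 at 10400 and 13700.

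Of the 10 ORFs with the largest Rpb3 loss, 6 had lower and 4 higher input, against 39.3% and 58.4% of all ORFs. Their log2 folds ran from -0.32 to 0.31, and 10 ORFs are too few to read a direction from. PHO84, the high-affinity phosphate transporter, had an input of 16900 in YEPD and 13300 in KCl and an Rpb3 of 325000 and 33100. NSR1, the yeast nucleolin, lost more Rpb3 on the log2 scale (68100 and 5910) at an input of 10500 and 10600. BSC1 had an input of 8520 and 10800 while its Rpb3 was 37800 and 3940. A large loss of Rpb3 was thus seen with lower, equal and higher input.

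Among ORFs with the highest Rpb3 in YEPD, PDC1, the main pyruvate decarboxylase, had an input of 19400 in YEPD and 14900 in KCl, a log2 fold of -0.36, with Rpb3 at 634000 and 193000. ILV5, an enzyme of branched-chain amino acid synthesis, had an input of 15500 and 12000, a log2 fold of -0.34. ADH1, the alcohol dehydrogenase of fermentation, had 10700 and 10600 although its Rpb3 was 434000 and 205000. TDH3, glyceraldehyde-3-phosphate dehydrogenase, had an input of 11400 and 10700 with Rpb3 at 533000 and 424000. High Rpb3 in YEPD thus went with high YEPD input at PDC1 and ILV5 and with input near the library median at ADH1.

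Within a library, input was higher at ORFs with more Rpb3 in the same treatment. In YEPD the median input was 8880 at the 82 ORFs with an Rpb3 signal below 2000, 10000 at the 2636 ORFs from 5000 to 10000, and 13600 at the 14 ORFs at 200000 and over. In KCl it was 7360 at the 39 ORFs below 2000, 10300 at 2940 ORFs from 5000 to 10000, and 15850 at the 26 ORFs at 200000 and over. The ORFs of the highest KCl bin had a median input of 11050 in YEPD, and those of the highest YEPD bin had 12000 in KCl. Each bin of highest Rpb3 thus had more input in the treatment in which its Rpb3 was highest. Both of these bins hold few ORFs, and the Spearman correlation of input with Rpb3 over 6013 ORFs was 0.23 in YEPD and 0.48 in KCl.

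**Figure D3:**
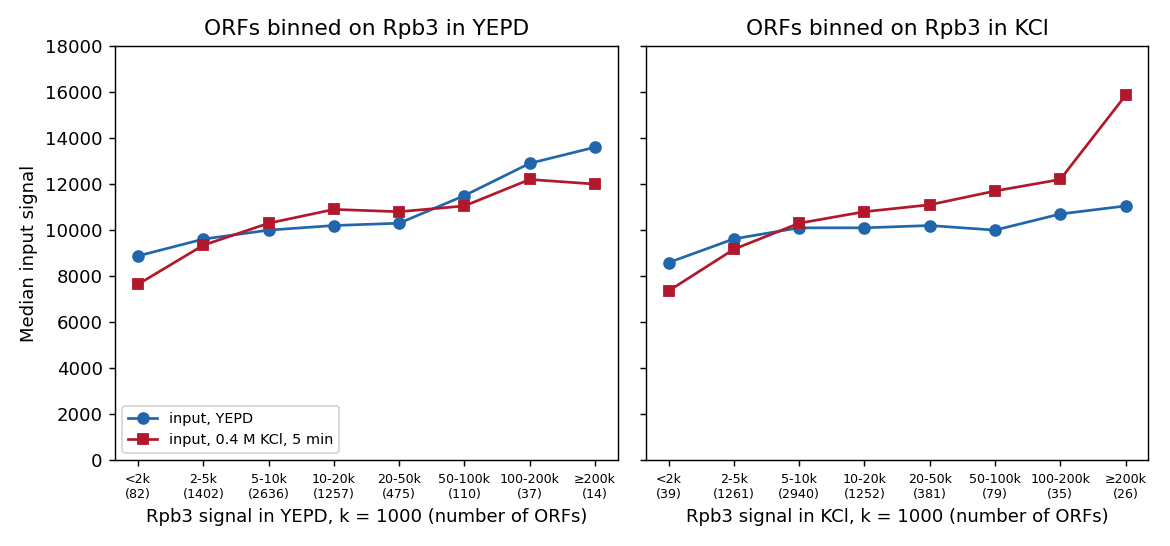
Lines give the median input signal of the YEPD (blue circles) and KCl (red squares) libraries for ORFs in 8 bins of Rpb3 signal in YEPD (left) or KCl (right), with the number of ORFs in parentheses. The KCl input reaches 15850 at the highest KCl Rpb3 while the YEPD input of the same ORFs stays at 11050.

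A second shift did not go with a change of Rpb3. Among ORFs whose Rpb3 log2 fold was between -0.5 and 0.5, the median input log2 fold was -0.17 for the 73 with an Rpb3 signal below 2000 in YEPD and -0.04 for the 1175 from 2000 to 5000. It was 0.04 for the 2095 from 5000 to 10000, 0.12 for the 763 from 10000 to 20000 and 0.15 for the 156 from 20000 to 50000. Above 50000 it was lower again, at 0.01 for the 21 ORFs up to 100000, 0.09 for the 7 up to 200000 and -0.02 for the 2 beyond. Up to an Rpb3 signal of 50000, the median input log2 fold was thus higher in each bin with more Rpb3, while Rpb3 was about the same in both treatments. Beside ORFs of the same YEPD Rpb3 level, the ORFs that gained Rpb3 lay higher. Their KCl level is higher by definition, so this comparison does not set the shift with level aside. Binned on KCl Rpb3, ORFs within 0.5 had medians of 0.13 (n = 772) from 10000 to 20000 and 0.16 (n = 141) from 20000 to 50000. For YEPD levels from 2000 to 5000, the gained median was 0.04 (n = 52) against -0.03 for the 1350 that changed less than 2-fold. From 5000 to 10000 it was 0.18 (n = 141) against 0.04 (n = 2459). From 10000 to 20000 it was 0.19 (n = 46) against 0.10 (n = 1061). The difference was small from 20000 to 50000, at 0.17 (n = 21) against 0.14 (n = 275). The ORFs that lost Rpb3 lay lower at the same level, with -0.04 (n = 179) against 0.14 (n = 275) from 20000 to 50000.

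In plain signal, 70 ORFs had at least 50000 more Rpb3 in KCl, and 68 of them had more input, against 58.4% of all ORFs. The median difference in input was 20.9 units for each 1000 units of Rpb3, with quartiles of 13.6 and 32.7. The exceptions were YMR173W-A and TMC1, which were chosen after their values were seen, and the input of TMC1 was 12700 in YEPD and 12600 in KCl. Of the 64 ORFs with at least 50000 less Rpb3, 47 had less input, against 39.3% of all ORFs. Their median was 12.6 units for each 1000, with quartiles of -0.82 and 23.7, which lie on both sides of 0. RPL36B, a protein of the large ribosomal subunit also chosen after its values were seen, went the other way, with an input of 6390 and 8840 and an Rpb3 of 166000 and 50300.

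**Figure D4:**
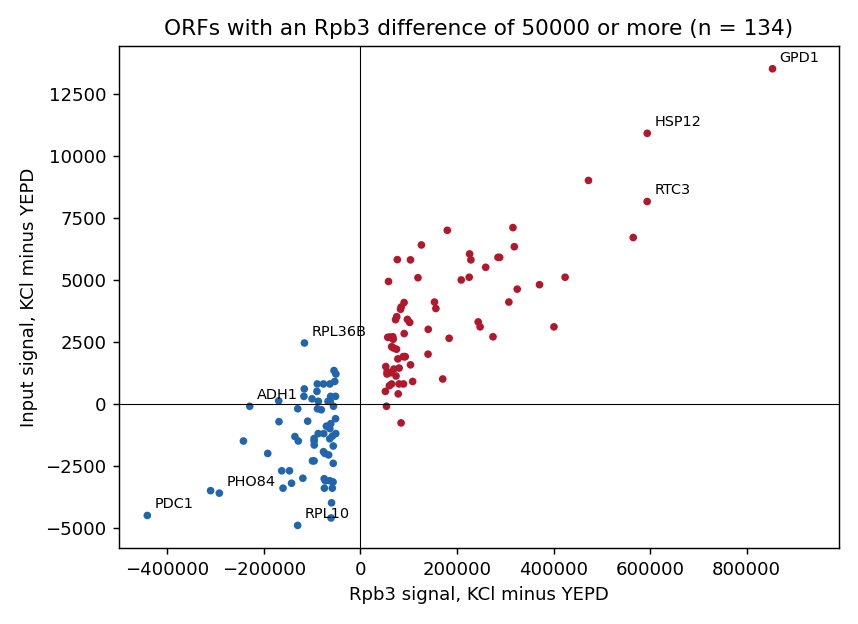
Each point is 1 of the ORFs with an Rpb3 signal difference of 50000 or more between KCl and YEPD (x axis), with its input signal difference on the y axis. Of the 70 ORFs with more Rpb3 (red), 68 had more input, and of the 64 with less Rpb3 (blue), 47 had less input. Over all tested ORFs, 58.4% had more and 39.3% had less input.

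The 28 ORFs that the study called Hog1-occupied all had higher input in KCl, against 58.4% of all ORFs. Their input lay between 6060 and 14200 in YEPD, with a median of 10400, and between 8730 and 25300 in KCl, with a median of 14250. In the YEPD library 1 of the 28 was above the 99th percentile of tested ORFs, and in the KCl library 13 were. The median log2 fold was 0.44, with 7 of 28 (25%) at least 1.5-fold higher, against 0.416% of all ORFs. All 28 had gained Rpb3, with a median log2 fold of 3.94. The study chose them with input as a divisor, so they are no independent set for input.

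**Figure D5:**
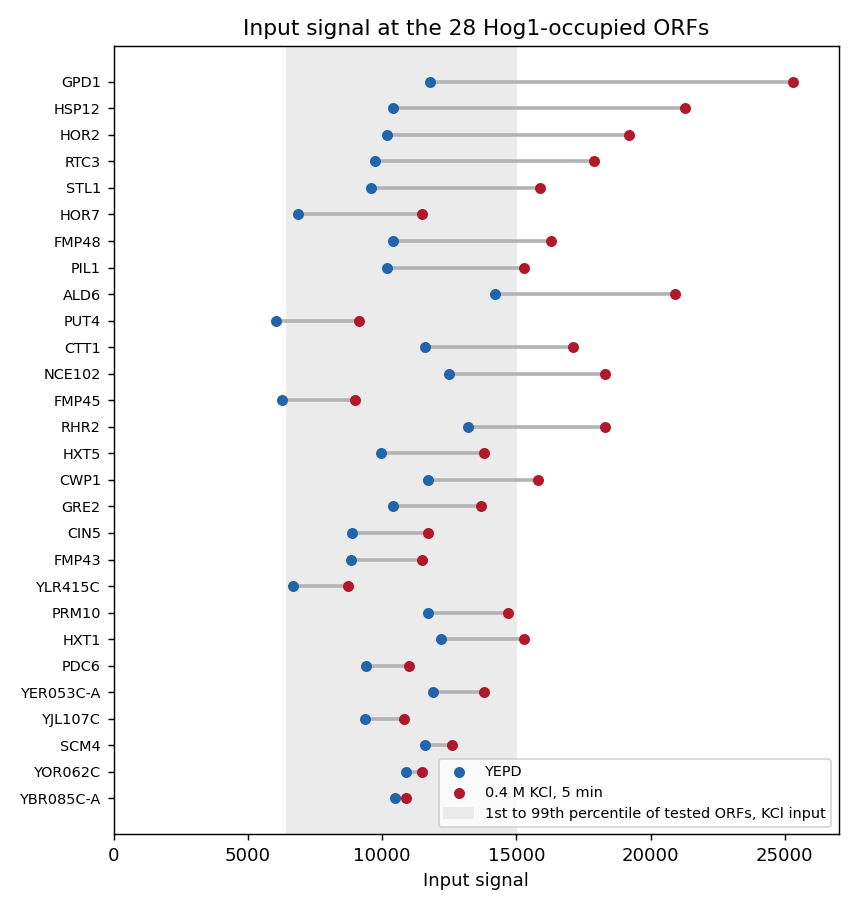
Each row is 1 of the 28 Hog1-occupied ORFs, with its input signal in YEPD (blue) and in 0.4 M KCl (red), ordered by log2 fold. The grey band spans the 1st to 99th percentile of KCl input over all tested ORFs, and in every row the red point lies to the right of the blue one, from YBR085C-A (log2 fold 0.05) to GPD1 (1.04).

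The 28 varied among themselves. PIL1, a core protein of eisosomes, had an input of 10200 in YEPD and 15300 in KCl, a log2 fold of 0.54. ALD6, the cytosolic aldehyde dehydrogenase, had 14200 and 20900, a log2 fold of 0.53, although its Rpb3 gain was modest on the log2 scale (192000 and 757000, log2 fold 1.97). At the other end, SCM4 had an input of 11600 and 12600, a log2 fold of 0.11, with Rpb3 at 12400 and 183000. A similar Rpb3 log2 fold, 3.97 at HOR7 against 3.78 at SCM4, came with an input of 6880 and 11500, a log2 fold of 0.67.

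The glycerol phosphatase RHR2 had an input of 13200 in YEPD and 18300 in KCl, a log2 fold of 0.44. HXT1, a low-affinity glucose transporter, had 12200 and 15300, a log2 fold of 0.30. PDC6, a minor pyruvate decarboxylase, had 9400 and 11000, a log2 fold of 0.21. Of the 28, YBR085C-A differed least, at 10500 and 10900. The order of input folds among the 28 did not fully follow that of Rpb3. YBR085C-A had an Rpb3 log2 fold of 3.48 and ALD6 1.97, while GPD1 and HSP12 were highest in both.

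Some ORFs had at least 1.5-fold more input without a gain of Rpb3. YBL109W had an input of 9330 in YEPD and 17000 in KCl with Rpb3 at 6730 and 6590. DLS1, a subunit of an ISW2 chromatin remodelling complex, had 7070 and 12700 with Rpb3 at 21800 and 21700. YHL006W-A had 12800 and 21100 with Rpb3 at 25100 and 15900. The mock IP was also at least 1.5-fold higher at 23 of the 25 ORFs with higher input, against 8.27% of all ORFs. Their median mock IP log2 fold was 1.36.

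The ORFs with the largest fall in input were mostly ones without a standard gene name. BUD28 (YLR062C) had an input of 9920 in YEPD and 4130 in KCl, a log2 fold of -1.09. YLR076C had 10500 and 4720, a log2 fold of -1.01. YAL037C-A had 12400 and 5900, a log2 fold of -0.96. Of the 14 ORFs with lower input, 9 are not protein-coding genes in the R64 reference, which holds 5597 of the tested ORFs and not the other 416. The median input log2 fold of those 416 was -0.08, with an SD of 0.27, against 0.04 and 0.16 for the 5597.

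Each of the 3 lowest ORFs has, by systematic name, a neighbour that lost Rpb3. The share of all ORFs with such a neighbour was not counted. YLR076C follows RPL10, a ribosomal protein gene with an input of 15800 in YEPD and 10900 in KCl and an Rpb3 of 170000 and 40200. YAL037C-A comes before CDC19, the pyruvate kinase, with an input of 14000 and 12000 and an Rpb3 of 272000 and 80300. BUD28 follows RPL22A, with an input of 8940 and 7610 and an Rpb3 of 14100 and 4550, far below that of the other 2 genes. Other neighbours differed. FMP25, after YLR076C, had an input of 10800 in both treatments and an Rpb3 of 9430 and 7290. YAL037W, which shares the number of YAL037C-A, had an input of 10800 and 12000 and an Rpb3 of 7260 and 4840. RBG1, on the other side, lost Rpb3 (20300 and 6970) at an input of 10500 and 12000. The mock IP at YLR076C, YAL037C-A and BUD28 had log2 folds of -2.35, -1.58 and -2.22. Of all 14 ORFs with lower input, 6 had a mock IP at least 1.5-fold lower (3.63% of all ORFs). The authors left out parts of ORFs that overlap another ORF, so a value for such an ORF rests on what remains of it. How many bases that is was not tested.

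YBR064W and YBR178W, in contrast, had lower input with Rpb3 near the bottom of both libraries. YBR064W had an input of 9540 in YEPD and 5150 in KCl with Rpb3 at 281 and 570. YBR178W had 9080 and 5240 with Rpb3 at 1840 and 2170. Lower input was thus found both beside genes that lost Rpb3 and at ORFs with little Rpb3 in either treatment.

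At neighbouring genes the difference in input was small. In R64 gene order, 83 ORFs with an Rpb3 log2 fold of 2 and over had a median input log2 fold of 0.31, and the 95 adjacent ORFs whose Rpb3 changed less than 2-fold had 0.06. At the next gene out the median was 0.04 over 129 ORFs. Beside the 16 such ORFs with an Rpb3 log2 fold of 4 and over, whose own median was 0.57, the 17 adjacent ORFs had 0.06, and none was 1.5-fold higher. Beside the 58 ORFs at -2 and under, whose own median was -0.15, the 80 adjacent ORFs had 0.01. These medians of neighbours lay close to the 0.03 of all tested ORFs.

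Groups of stress genes lay above the median of all ORFs, which was 0.03. The median input log2 fold over 30 general stress genes of the Msn2 and Msn4 regulon was 0.32, with 27 above 0 and 4 at least 1.5-fold higher (58.4% and 0.416% of all ORFs), and their median Rpb3 log2 fold was 3.13. Over 14 genes of glycerol metabolism it was 0.23, with 12 above 0 and 3 at least 1.5-fold higher. Over 18 genes of trehalose and glycogen it was 0.16, with 17 above 0. TPS1 and TPS2, the trehalose synthase and phosphatase subunits, had inputs of 11000 and 9710 in YEPD and of 16800 and 14700 in KCl, plain ratios of 1.53 and 1.51 that fall under 1.5-fold once 989 is added. Over the 20 genes that the study listed as bound by Sko1, Hot1 and Hog1, a list chosen on these libraries, it was 0.52, with 20 above 0.

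Cytosolic ribosomal protein genes were lower as a group. The median input log2 fold over 126 of them was -0.22, with 7 above 0, 24 lower by at least 0.32 and none past 1.5-fold, and 124 of the 126 had lost Rpb3. Over all ORFs 58.4% were above 0, 2.78% were lower by at least 0.32 and 7.73% had lost Rpb3. Their median input was 11050 in YEPD, above the 9960 of all ORFs, and 9400 in KCl, below the 10200 of all ORFs. RPL7B had an input of 10600 in YEPD and 7100 in KCl, and RPS9A had 12900 and 8910. Ribosome biogenesis genes, of which 43 of 53 had lost Rpb3, had a median of -0.02 and none past 1.5-fold. Loss of Rpb3 was thus common in both groups, and the shift of input was larger over the ribosomal protein genes. The Rpb3 median was -1.76 for the ribosomal protein genes and -1.29 for the biogenesis genes. All 404 ORFs with an Rpb3 log2 fold from -2 to -1 had a median input log2 fold of -0.02. Whether the difference in Rpb3 accounts for that in input was not tested.

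The median input log2 fold of other groups was -0.02 over 17 genes of glycolysis and fermentation, -0.04 over 17 translation factors, -0.03 over 10 histone genes, 0.06 over 31 proteasome genes and 0.06 over 9 hexose transporters. FBA1, the aldolase, was the lowest of the glycolytic genes outside PDC1, with an input of 17400 in YEPD and 14400 in KCl. HHT1, a histone H3 gene, had 11000 and 8200 while its Rpb3 was 94500 and 104000. Over 5 genes used as markers in the W303 background the median input log2 fold was 0.07. It was 0.18 over 3 silent mating and PAU genes, with a range of -0.26 to 0.54, and -0.01 over the 11 ORFs with qPCR primers in the study. ACT1, the actin gene, had an input of 9850 and 10600, POL1 had 9840 and 9600 and MYO4 had 9820 and 9560.

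Promoters and downstream regions were read from separate tables, and their column heads are in doubt. In the column headed input, the highest KCl signal was 207000, at the GPD1 promoter, while no tested ORF had an input above 25300, and the median log2 fold at the 28 Hog1-occupied genes was 1.62. In the column headed mock IP the highest KCl promoter signal was 16900 and that median was -0.08. Over 6330 genes, the promoter column headed input had Pearson correlations of 0.63 (YEPD) and 0.66 (KCl) with Hog1 over the ORF. With input over the ORF they were 0.59 and 0.52. The promoter column headed mock IP had 0.68 and 0.58 with input over the ORF, and 0.09 and -0.04 with the mock IP. The promoter column headed Hog1 had -0.02 and 0.04 with Hog1 over the ORF, and 0.29 and 0.08 with the mock IP. The column headed input thus followed Hog1 more closely than input, and its values may be those of another library than input. As headed, the median log2 fold was 0.20 at promoters and 0.40 downstream of genes that gained Rpb3, and -0.22 and -0.31 at those that lost it. With the column headed mock IP read as input, it was -0.04 and -0.02 for gained and -0.11 and -0.23 for lost. For genes that lost Rpb3 both readings lay below 0, but the columns cannot both be input, so the shared sign is no check of either. For genes that gained it the sign depends on the reading, and no direction is given. The medians over all regions were -0.05 and -0.03 as headed and -0.04 and -0.10 with the other reading.

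Input enters other values as a divisor. With Rpb3 divided by the input of the same treatment, 255 ORFs had a gain of 2-fold in place of 270, and 239 were in both sets, while 485 had a loss in place of 465, with 427 in both. The Rpb3 log2 fold of GPD1 was 6.22 without division and 5.18 with it. All 28 Hog1-occupied ORFs had a gain either way, and their median log2 fold was 3.94 without and 3.63 with division.

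Hog1 enrichment, for which the mock IP is subtracted from the Hog1 signal before division by input, was computed with the input of each treatment. With the KCl input the 28 ORFs had a median enrichment of 2.81, and with the YEPD input 4.01. GPD1 had 3.92 with the KCl input, below 4 others, and 8.40, the highest, with the YEPD input. SCM4, whose input hardly differed, had 5.91, the highest, with the KCl input, and 6.42, below GPD1 and RTC3, with the YEPD input. HSP12 had 2.13 and 4.36. Enrichment was lower with the KCl input at all 28, which follows from their higher KCl input.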

How the data were processed

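The values of 1 input library per treatment were set beside those of Rpb3, mock IP and Hog1 in wild type, and the labels alone set the groups. The authors deposited tables of ORFs, promoters and downstream regions with a coverage signal per region, which they name RPKM and scaled to region length and library total. The submitters' processing notes name Bowtie and the sacCer2 build, the study's supplement names ELAND, and no version was given in the sources used here. Tags were extended to the fragment length, and stretches shared by overlapping ORFs were dropped. Size selection and PCR without molecular identifiers can change recovery.

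The ORF table has 6334 entries, of which 4 with a common name were removed, followed by the 5% with the lowest mean input. Log2 folds are KCl over YEPD with 989 (0.1 times the median YEPD input) added to both, so that changes at low signal are understated. Calls were made at 1.5-fold for input and 2-fold for Rpb3. Read totals per library are unknown, so no counting interval was given. The steps were run in Python 3.11.15 with pandas 2.3.3 and tested on simulated data. R64 gene names and gene order matched 5792 of 6330 ORFs as protein-coding genes, and none of its coordinates was used. Value columns of other libraries were not used, 6 in the ORF table and 2 in each of the others, nor were the peak lists.

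The input libraries, the 18 gene lists and the rules were chosen with earlier results of these data known. The lists not described in the report are the Y' helicases, mitochondrial genome, 2-micron plasmid and tandem or copy-variable loci, of which no member was tested. The named genes are the 10 largest rises and falls of input and of Rpb3, the 5 highest inputs per treatment, the 28 Hog1-occupied ORFs, the 4 members per list (fewer in short lists) whose input changed most and the qPCR genes. YGR176W and genes given as neighbours were chosen after their values were seen. Alternatives were other pseudocounts, filters, thresholds, classes and a centring, and another reading of the heads of the promoter and downstream tables. 2 alternatives, R64 genes alone and a minimum Rpb3 signal, were added after the data were seen.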

Additional observations from a re-analysis of the deposited data

How the results depend on the processing

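The median input log2 fold at ORFs that gained Rpb3 (0.17) stayed above 0 under each alternative run for it on the ORF table, and that at Hog1-occupied ORFs (0.44) under the pseudocounts, filters and centring, which were those run for it. The counts of called ORFs did depend on the settings. With no pseudocount 39 were higher and 25 lower, and with 0.5 times the median 6 and 3. At a log2 fold of 0.32 there were 252 and 167, and at 2-fold 1 and 2. Without the filter on low input 33 were lower, with the lowest 10% left out 7, and over R64 genes alone 5. The median at ORFs that lost Rpb3 (-0.03) was -0.075 with 0.5 times the median as pseudocount and -0.061 when centred on all ORFs. With Rpb3 classes at 1.5-fold the medians were 0.10 for gained and 0 for lost, and at 4-fold 0.30 and -0.15. Over ORFs with an Rpb3 signal of 20000 and over in YEPD, they were 0.27 and -0.081. Reading the column headed mock IP as input turned the gained medians to -0.040 at promoters and -0.024 downstream, and gave -0.11 for lost at promoters. Here the cause is the choice of column, and for the other settings the cause was not tested. Rpb3 calls went from 735 to 740 with division by input.

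No paired analysis was possible because there is 1 library per treatment and the labels give no replicate numbers to pair. For the same reason no library was left out, and biological variation, sonication of a single lysate and treatment cannot be told apart. Depth is unknown, and no counting error was given.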

Other observations

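A run of 3 adjacent genes had high input in both treatments without high Rpb3. VPS71, a subunit of the SWR1 chromatin remodelling complex, had an input of 22700 in YEPD, the highest of any tested ORF, and 25100 in KCl. CAT2, the carnitine acetyltransferase, had 21500 and 21900, and RRN11, a factor of RNA polymerase I transcription, had 21200 and 20700. These are 2.03 to 2.46 times the library median, while their Rpb3 signal was between 3190 and 7160. Neither the mock IP (7850 to 9680) nor the log2 fold of input (-0.03 to 0.14) stood apart at these genes. YNL296W had an input of 18100 in YEPD and 24400 in KCl with a mock IP of 15000 and 13400.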
